A study of Mus musculus with 42 samples.

Results

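Collagen VI is the subject of this account, through the 4 genes of its α1, α2, α3 and α6 chains: Col6a1, Col6a2, Col6a3 and Col6a6. They are 4 of the 26323 genes with a symbol in the RNA table of CD1 mice and 4 of the 35972 in the RNA table of C57BL/6 mice. They were taken by symbol because their RNA was far lower in cultured lung mesenchymal cells than in freshly sorted ones. After lung injury it changed less than in culture, though not equally little in all 4. They were thus chosen by their measured RNA values in culture against sham and in injury against sham, and those values are given below as a description with no test. Chromatin regions were then added by the gene they were assigned to.

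Collagen VI is a matrix protein that fibroblasts secrete. Each molecule joins an α1 chain, an α2 chain and a longer chain that is α3, α5 or α6, or α4 in mice. The molecules are assembled inside the cell and form beaded microfilaments outside it, which lie close to basement membranes and link cells to fibrillar collagens, small proteoglycans and microfibrils. In the lung they are part of the interstitial matrix of alveolar walls, airways and vessels.

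Gene expression (RNA-seq) and open chromatin (ATAC-seq, which reads where a transposase can cut) were measured in sorted mouse lung mesenchyme, in 21 libraries of each kind. In the CD1 strain the cells were Col1a1-GFP+, that is, positive for a reporter named after the type I collagen gene, and were gated as CD45-, EpCAM- and CD31- to leave out leukocytes, epithelium and endothelium. They had been cultured for 5 days in DMEM with 10% FBS on collagen1-coated PDMS of 32 kPa, a stiff surface, or of 0.2 kPa, a soft one, or were from sham mice without culture (3 libraries per group and assay). In the C57BL/6 strain the cells were Col1a2-lineage traced and gated as CD45- and EpCAM-. They came from mice given bleomycin, which causes lung injury followed by fibrosis, 56 days or 14 days earlier, or from sham mice (4 libraries per group and assay). Culture and injury thus differ in strain, reporter and gate, and no test crosses the 2 RNA tables. Whether replicates come from different mice or dishes is not in the labels, and each p-value is therefore set only against the spread of these libraries, which may be technical.

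The RNA libraries held 35858180 to 69524944 reads in CD1 and 14288605 to 51288435 in C57BL/6. The day 56 replicate 2 library was the shallowest, and the day 56 log2 folds of the 4 genes are given with and without it. All 8 mesenchyme markers (among them Col1a1, Pdgfra and Dcn) had reads in every group, with summed levels of 4750 to 5147 CPM (reads scaled to the library total) at 32 kPa, 5022 to 5808 CPM at 0.2 kPa and 52008 to 62512 CPM in CD1 sham. The same sum was 29602 to 44777 CPM at day 56, 82619 to 102961 CPM at day 14 and 30148 to 42634 CPM in C57BL/6 sham. The 8 epithelial markers summed to at most 1.65 CPM on the gels and at most 359 CPM in sham cells. By Xist and Ddx3y, all 4 day 56 libraries were female, against 2 of 4 at day 14 and 1 of 4 in C57BL/6 sham.

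The start sites of the 3 chains that make up most of collagen VI are shown first, since accessibility was lower at each of them in culture. Col6a1 (ENSMUSG00000001119; chr10:76708792-76726168) and Col6a2 (ENSMUSG00000020241; chr10:76595762-76623630) lie on the minus strand, the Col6a2 gene downstream of Col6a1. Col6a3 (ENSMUSG00000048126; chr1:90765923-90843971) and Col6a6 (ENSMUSG00000043719; chr9:105687809-105828160) are on the minus strand too. The sequences are RefSeq promoters of the GRCm38.p6 assembly, 250 bases before to 50 bases after the start, 5′ to 3′ along the gene, with matches to 5 motifs in capitals. The motifs, searched on both strands, were TGANTCA (AP-1), GGAATG (TEAD), TGTGGT (RUNX), GGGCGG (SP) and CCAAT (NF-Y), and a match is only a description of the letters.
Col6a1 promoter, chr10:76725995-76726294, minus strand: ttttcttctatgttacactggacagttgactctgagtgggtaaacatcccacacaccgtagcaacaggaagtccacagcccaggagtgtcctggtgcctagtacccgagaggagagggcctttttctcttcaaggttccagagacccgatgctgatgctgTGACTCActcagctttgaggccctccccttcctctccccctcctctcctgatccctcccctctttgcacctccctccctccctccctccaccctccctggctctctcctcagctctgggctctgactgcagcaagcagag
Col6a2 promoter, chr10:76623355-76623654, minus strand: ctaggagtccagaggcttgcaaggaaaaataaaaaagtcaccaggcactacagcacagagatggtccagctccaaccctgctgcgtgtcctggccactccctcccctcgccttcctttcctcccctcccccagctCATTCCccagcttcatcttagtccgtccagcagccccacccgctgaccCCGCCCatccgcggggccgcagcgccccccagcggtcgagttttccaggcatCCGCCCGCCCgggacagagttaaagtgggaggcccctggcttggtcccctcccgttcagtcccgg
Col6a3 promoter, chr1:90843922-90844221, minus strand: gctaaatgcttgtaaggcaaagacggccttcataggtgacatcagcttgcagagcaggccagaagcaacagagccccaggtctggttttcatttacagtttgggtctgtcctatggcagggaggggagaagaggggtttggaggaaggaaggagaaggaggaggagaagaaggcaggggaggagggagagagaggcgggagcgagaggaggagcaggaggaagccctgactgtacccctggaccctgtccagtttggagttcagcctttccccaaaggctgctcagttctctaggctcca
The Col6a1 window holds 1 AP-1 match, which begins at position -90 from the start site. The Col6a2 window, the first of 2 RefSeq starts of that gene, holds 1 TEAD match at -115 and SP matches at -67, -15 and -11, the last 2 of which overlap. None of the 5 motifs is found in these 300 bases of Col6a3. Among all 27025 RefSeq promoters of the same length, 7.93% hold the AP-1 letters, 14.6% the TEAD letters and 35.9% the SP letters.

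Cells grown on either gel held about 1% of the Col6a1 and Col6a2 RNA of CD1 sham cells, less than 10% of the Col6a3 RNA, and almost no Col6a6 RNA. Values are normalised read counts (the deposited values brought to a common scale by 1 factor per library). For all 4 genes the libraries of either gel and of sham did not overlap, as for 76.4% of all genes tested for 0.2 kPa and 73.1% for 32 kPa; since these contrasts chose the genes, nothing is read from it. Across all 18488 genes tested, 31.9% were called higher and 39.2% lower at 0.2 kPa than in sham by limma (Benjamini-Hochberg adjusted p under 0.05), and 32.4% and 41.0% at 32 kPa. In these bulk samples, fewer cells of a type and less RNA per cell cannot be told apart.

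Col6a1, the gene of the α1 chain that every collagen VI molecule needs, had 1044, 1139 and 1278 normalised reads at 32 kPa, 1511, 1357 and 1817 at 0.2 kPa, and 126272, 138854 and 151016 in CD1 sham. Each cultured library lay far below each sham library. The mean level was 0.832% of sham at 32 kPa and 1.13% at 0.2 kPa, a log2 fold of -6.91 ± 0.13 and -6.48 ± 0.13 (standard error). Of all genes tested, 1.78% had a lower fold than Col6a1 at 32 kPa and 1.83% at 0.2 kPa.

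Col6a2, whose α2 chain is likewise part of every molecule, followed Col6a1 closely. It had 827, 961 and 789 normalised reads at 32 kPa, 929, 926 and 1284 at 0.2 kPa, and 93554, 113580 and 119619 in CD1 sham. The log2 folds were -6.98 ± 0.15 at 32 kPa and -6.71 ± 0.15 at 0.2 kPa, that is, 0.789% and 0.961% of the sham mean.

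Col6a3 encodes the usual long chain, the one whose end piece, endotrophin, is cut off after secretion. It kept the most RNA: 4577, 4609 and 6100.04 normalised reads at 32 kPa and 7011, 7190.1 and 7235 at 0.2 kPa, against 73343, 62861 and 82936 in CD1 sham. The means were 6.97% of sham at 32 kPa and 9.78% at 0.2 kPa (log2 folds of -3.85 ± 0.14 and -3.34 ± 0.14). Its groups were as fully apart as those of the other chains, at a smaller distance.

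Col6a6 encodes an alternative long chain. It had 4, 0 and 9 reads at 32 kPa and 2, 2 and 3 reads at 0.2 kPa, against 6044, 5943 and 5084 reads in CD1 sham. It was thus near the limit of detection on both gels. Its pooled CPM was 0.0929% of sham at 32 kPa (95% interval 0.0494 to 0.159) and 0.0567% at 0.2 kPa (0.0228 to 0.117), where the exact binomial intervals cover counting error only. Its log2 folds, -10.36 ± 0.66 and -10.47 ± 0.66, depend on the pseudocount of 1.

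The 2 related genes that were left out of the set are the alternative long chains next to Col6a6 on chromosome 9. Col6a5 had 0, 0 and 1 read at 32 kPa and 1, 2 and 3 reads at 0.2 kPa, against 2491, 7114 and 2533 in CD1 sham. It was therefore at trace level in culture as well (log2 fold -11.31 ± 0.49, adjusted p = 7.34e-09 by limma at 32 kPa; -9.99 ± 0.49, adjusted p = 1.95e-08 at 0.2 kPa). Col6a4 had at most 4 reads in a cultured library and 5 to 10 in a CD1 sham library.

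The fold changes in culture came with a change of cell type markers, whose part in the result was not tested. All 8 adventitial fibroblast markers (such as Pi16 and Dpp4) fell on both gels, to a summed 163 to 184 CPM at 32 kPa and 187 to 193 CPM at 0.2 kPa, against 9663 to 11253 CPM in CD1 sham. Of the 8 alveolar fibroblast markers, 7 fell on each gel, to a summed 24.2 to 27.1 CPM at 32 kPa and 28.5 to 31.9 CPM at 0.2 kPa, against 3034 to 3287 CPM in sham. The eighth, Npnt, was at 109 to 345 CPM at 32 kPa and 246 to 304 CPM at 0.2 kPa, against 132 to 199.97 CPM in sham, and did not pass on either gel (log2 fold -0.01 ± 0.33 and 0.54 ± 0.33), so that all 8 summed to 133 to 372 CPM, 278 to 333 CPM and 3213 to 3419 CPM in the same groups. Leukocyte markers summed to 13.5 to 14.4 CPM at 32 kPa, 16.8 to 24.1 CPM at 0.2 kPa and 98.2 to 190.1 CPM in sham. Of these 10 markers, 8 fell on each gel and 1 rose at 0.2 kPa. Of 7 pericyte markers, 5 fell and 1 rose on each gel. Cspg4, one of the 7, was at 129.5 to 144 CPM at 32 kPa and 119.3 to 165.7 CPM at 0.2 kPa, against 18.59 to 76.07 CPM in sham. Of 6 smooth muscle markers 5 fell on each gel, as did 7 of 8 endothelial markers, and none of either list rose. The markers at 0 were Higd1b (pericyte) on both gels, Adgre1, Cd3e (leukocyte) and Cldn5 (endothelium) at 32 kPa, and Scgb1a1 and Sftpa1 (epithelium) at 0.2 kPa.

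**Figure D1:**
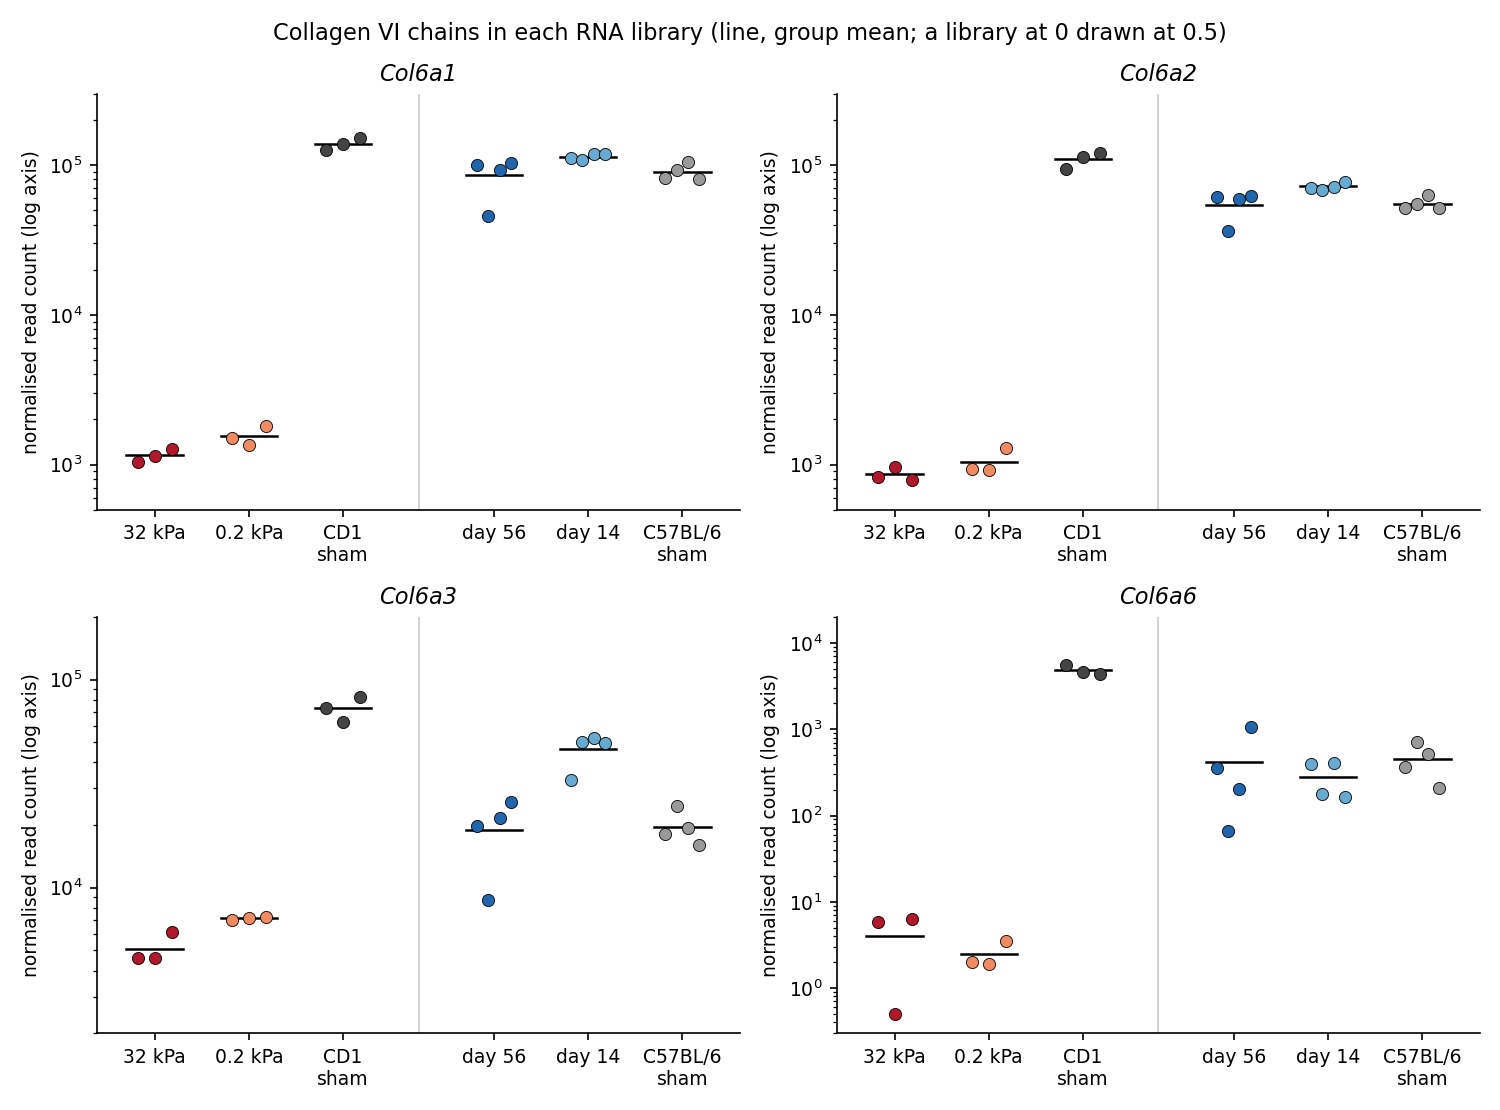
Normalised read count of each collagen VI gene (log axis) in every RNA library, with the CD1 groups to the left of the grey line and the C57BL/6 groups to the right; points are libraries and bars are group means, and a library with no read is drawn at 0.5. The cultured libraries of Col6a1 lie between 1044 and 1817 and those of CD1 sham between 126272 and 151016, whereas those of the C57BL/6 groups lie between 45671 and 118678.

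Differences between the gels were small beside those between either gel and sham. Normalised reads of Col6a1 averaged 1153 ± 118 at 32 kPa and 1562 ± 234 at 0.2 kPa (SD, n = 3 each), a log2 fold of -0.43 ± 0.13. Those of Col6a3 averaged 5095 ± 870.3 at 32 kPa and 7145 ± 119 at 0.2 kPa (-0.50 ± 0.14). In both genes the 3 stiff libraries lay below the 3 soft ones, and 9.23% of all genes tested also had no overlap, in either direction. Col6a2 (-0.27 ± 0.15) and Col6a6 (0.11 ± 0.66) overlapped between the gels. These libraries are also part of the contrasts that chose the genes.

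No gene at all was called between the gels by limma (0% higher and 0% lower of 18488; 1011 at an unadjusted p under 0.05), against 1 lower by edgeR, and 4 higher and 42 lower by DESeq2. The outcome rests on 1 library: without 32 kPa replicate 3, limma called 317 genes higher and 510 lower. The log2 fold of Col6a3 was then -0.64 ± 0.12. In the family's order of CPM per kilobase of mRNA, Col6a3 came first on both gels, at 9.82 ± 2.01 at 32 kPa and 14.4 ± 0.342 at 0.2 kPa, followed by Col6a1 at 6.06 ± 0.822 and 8.60 ± 1.22 and Col6a2 at 3.61 ± 0.353 and 4.62 ± 0.882. Col6a6 was last, at 0.0118 and 0.00761.

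After bleomycin the mean level of Col6a3 was 236% of C57BL/6 sham at day 14, while Col6a1 was at 127%, Col6a2 at 130.2% and Col6a6, whose libraries were scattered, at 62.95%. At day 56 the means of the 4 genes were 93.05% to 98.6% of sham. The lowest, that of Col6a6, leaned on day 56 replicate 4, at 1048 normalised reads against 66.5 to 354 in the other libraries. Its log2 fold against sham was -0.61 ± 0.66, and -1.26 to 0.05 with a library left out. At day 14, 3 of the 4 genes had no overlap with C57BL/6 sham, against 26.1% of all genes tested, and at day 56 none of the 4 (2.56% of all genes). Limma called 9.54% of 21134 genes higher and 6.35% lower at day 14, and 0% higher and 0.00473% lower at day 56. Neither contrast with sham is a test for these genes, since both chose them.

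Col6a1 had 99510.4, 45671, 92865 and 103000 normalised reads at day 56, 110574, 107894, 118266 and 118678 at day 14, and 81442, 91939, 104647 and 80613 in C57BL/6 sham. The 4 day 14 libraries were all above the 4 sham libraries, while day 56 replicate 2 was the lowest of all. The log2 fold against sham was -0.13 ± 0.23 at day 56 and 0.35 ± 0.23 at day 14, where 65.4% of genes tested had a lower one. Col6a2 had 60702, 35971, 59324 and 61809 normalised reads at day 56, 70665, 68443, 71545 and 77015 at day 14, and 51440.3, 54703, 63318 and 51430.2 in sham. Its day 14 libraries were likewise all above sham (-0.05 ± 0.17 at day 56 and 0.39 ± 0.17 at day 14).

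Col6a3 had 19812, 8692, 21575 and 25827 normalised reads at day 56, 32783, 50105, 52368 and 49468 at day 14, and 18036, 24682, 19313 and 16094 in sham. The day 14 libraries stood clear of both other groups, and day 56 overlapped sham. The log2 fold against sham was 1.24 ± 0.28 at day 14, where 87% of genes tested had a lower one, and -0.13 ± 0.28 at day 56. Col6a6 was low and scattered, at 354, 66.5, 205 and 1048 normalised reads at day 56, 391, 178, 402 and 162 at day 14, and 368, 711, 510.02 and 210 in sham. Its groups overlapped throughout (log2 fold -0.61 ± 0.66 at day 56 and -0.66 ± 0.66 at day 14). The sign of the day 56 folds against sham rests on 1 library. Without day 56 replicate 2 they were 0.14 ± 0.13 for Col6a1, 0.14 ± 0.12 for Col6a2, 0.21 ± 0.19 for Col6a3 and 0.05 ± 0.55 for Col6a6. That of Col6a2 also turned to 0.02 without sham replicate 3 and to 0.03 with CPM scaling.

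Day 56 against day 14 is also given without a test for these genes, since the choice by milder changes after injury drew on the same libraries. Col6a3 was at 18977 ± 7306 normalised reads at day 56, against 46181 ± 9018 at day 14 (SD, n = 4 each; log2 fold -1.37 ± 0.28), and all 4 day 56 libraries were below all 4 day 14 libraries. The log2 fold was -1.03 ± 0.19 without day 56 replicate 2 and -1.38 with a term for sex. Col6a1 (-0.49 ± 0.23) and Col6a2 (-0.43 ± 0.17) were also lower in every day 56 library, and without day 56 replicate 2 their folds were -0.21 and -0.25. Col6a6 overlapped between the days (0.04 ± 0.66, and 0.71 ± 0.55 without day 56 replicate 2). Of all genes tested, 5.70% were called higher and 8.48% lower at day 56 than at day 14, and 20.2% had groups without overlap.

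The balance of those calls depends on the scale: 1204 genes were higher and 1792 lower as scaled here, against 777 and 3034 with the values as deposited and 1260 and 1232 by edgeR. With the deposited scale, Col6a1 was at -0.70 and Col6a2 at -0.64, and the median of all genes lay at -0.27 in place of -0.08. Other cell markers moved between the same groups, and their part was not tested. Leukocyte markers summed to 185 to 653 CPM at day 56, 567 to 2149 CPM at day 14 and 236 to 353 CPM in sham, with 5 of 10 lower at day 56 than at day 14 and 7 of 10 higher at day 14 than in sham. Alveolar fibroblast markers summed to 7015 to 8957 CPM, 1549 to 1922 CPM and 6254 to 12315 CPM in the same groups, with 6 of 8 higher at day 56 than at day 14 and 7 of 8 lower at day 14 than in sham.

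Of the alternative chains, Col6a5 was at 0 to 290 normalised reads at day 56, 322 to 1197 at day 14 and 70.8 to 240 in sham. Its day 14 libraries did not overlap sham, but the difference did not pass (2.44 ± 1.29, adjusted p = 0.240 by limma), nor did day 56 against day 14 (-3.79 ± 1.29, adjusted p = 0.0676). Of Col6a4 and Col6a5, 1 was called higher at day 14 than in sham with CPM scaling, and 1 was called lower at day 56 than at day 14 with CPM scaling, with the values as deposited, with a pseudocount of 5, or without day 56 replicate 2 or 4. Col6a4 had at most 135 reads in a C57BL/6 library.

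The ratio of chains within a library separates Col6a3 from the other 2 abundant chains in both settings. On the log2 scale, reads of Col6a3 over Col6a1 averaged 2.14 ± 0.12 at 32 kPa and 2.20 ± 0.21 at 0.2 kPa, against -0.93 ± 0.19 in CD1 sham (SD, n = 3 each). They averaged -2.21 ± 0.19 at day 56 and -1.33 ± 0.29 at day 14, against -2.21 ± 0.23 in C57BL/6 sham (SD, n = 4 each). Reads of Col6a2 over Col6a1 had group means of -0.42 ± 0.24 at 32 kPa, -0.58 ± 0.10 at 0.2 kPa and -0.35 ± 0.07 in CD1 sham, and between -0.70 and -0.61 in the C57BL/6 groups. These ratios need no scaling between libraries, and as the genes were chosen for their changes they carry no test.

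Per kilobase of mRNA, Col6a3 made up 50.1% ± 3.49 of the RNA of the family at 32 kPa and 52.3% ± 3.79 at 0.2 kPa, against 10.5% ± 1.36 in CD1 sham (SD, n = 3 each). Its share was 4.98% ± 0.753 at day 56 and 8.94% ± 1.55 at day 14, against 5.07% ± 0.830 in C57BL/6 sham (SD, n = 4 each). Outside culture the order of levels was Col6a1, Col6a2, Col6a3 and Col6a6 in all 4 groups. In CD1 sham these stood at 666, 419, 129 and 13.0 CPM per kilobase, and at day 14 at 749, 379, 111 and 1.04 CPM per kilobase. The orders held with the shortest curated mRNA in place of the longest, a check added after seeing the data.

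**Figure D2:**
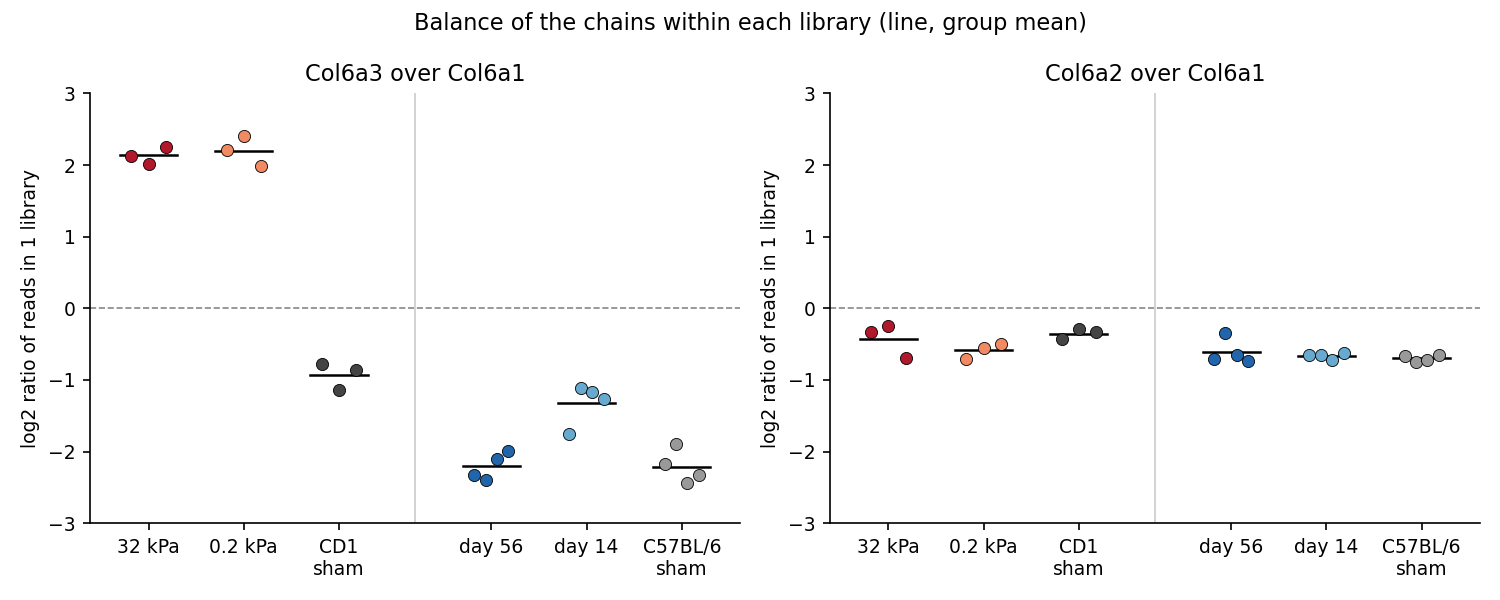
Log2 ratio of reads of Col6a3 over Col6a1 (left) and Col6a2 over Col6a1 (right) in each RNA library; points are libraries, bars group means, and the grey line parts the CD1 from the C57BL/6 groups. Col6a3 over Col6a1 lies above 0 in all 6 cultured libraries and below 0 in the other libraries, while Col6a2 over Col6a1 stays between -0.75 and -0.24.

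The genes whose RNA followed that of the chains most closely were found by the root-mean-square difference of log2 values, each centred on the mean of its table, over 21 libraries and 16423 genes. Col6a1 and Col6a2 were nearer to each other (0.130) than to any other gene. Next to Col6a1 were Spon1 (0.248), Thbs3 (0.260) and Hr (0.338), and next to Col6a2 were Spon1 (0.216), Thbs3 (0.294) and Clec11a (0.326). Col6a3 was 1.02 from Col6a1 and nearest to Ssc5d (0.311), Svep1 (0.352) and Sorcs2 (0.364). The nearest gene to Col6a6, C4b, was farther off, at 0.790. Culture against sham, which chose the genes, holds the largest changes that enter this measure. After injury the likeness was less close. At day 14 against sham the log2 folds were 0.05 for Spon1, 0.08 for Thbs3, -0.47 for Hr and 0.43 for Clec11a. Those of Col6a1 and Col6a2 were 0.35 and 0.39, and the differences were not tested.

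Genes that act with collagen VI were listed by role and, not being members, were tested in every contrast. The lists were drawn up with earlier results of these data known, so the calls are not independent tests of lists fixed beforehand. Of 8 receptor genes, 2 rose and 6 fell on each gel. Over all genes tested, 31.9% were called higher and 39.2% lower at 0.2 kPa, and 32.4% and 41.0% at 32 kPa. The proteoglycan NG2 gene Cspg4 (log2 fold 1.59 ± 0.39, adjusted p = 0.00395 by limma at 0.2 kPa) and Itgb1, the shared chain of the collagen-binding integrins (1.17 ± 0.14, adjusted p = 2.63e-05), rose. Antxr1 (-3.77 ± 0.15) and Antxr2 (-2.15 ± 0.12), receptors that bind collagen VI, fell. Of 10 matrix partners, 9 fell on each gel, among them the small proteoglycan decorin gene Dcn (-7.25 ± 0.15 at 0.2 kPa), the tenascin gene Tnxb (-7.82 ± 0.15) and the fibronectin gene Fn1 (-1.03 ± 0.16). Biglycan (Bgn) did not pass (-0.28 ± 0.16). The median over the partners at 0.2 kPa was -4.79, against -0.22 over all genes, and that over the 4 collagen VI genes was -6.59.

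The genes that modify and fold collagen chains moved in both directions in culture. Of 13 such genes, 5 rose and 6 fell at 0.2 kPa, where 31.9% of all genes were called higher and 39.2% lower, and 3 rose and 6 fell at 32 kPa (32.4% and 41.0% of all genes). Their median was -0.32 on both gels, against -0.22 and -0.26 over all genes at 0.2 kPa and 32 kPa. The lysyl hydroxylase genes Plod2 (0.75 ± 0.10 at 0.2 kPa) and Plod3 (0.82 ± 0.10) rose, and the galactosyltransferase gene Colgalt2 fell (-7.49 ± 0.72). Of 5 proteases that act on collagen VI or the matrix around it, none rose and 4 fell on each gel, such as Mmp2 (-5.63 ± 0.09) and Bmp1 (-2.30 ± 0.10). Of the 5 fibrillar collagens, given for scale, 4 fell and 1 rose on each gel. At 0.2 kPa Col3a1 (-6.37 ± 0.15) was near the -6.48 of Col6a1, Col1a1 fell less (-2.22 ± 0.21), and Col5a2 rose (0.47 ± 0.17, adjusted p = 0.0292 by limma). With the values as deposited, none of the 5 was called higher on either gel. The count was also 0 at 0.2 kPa without any single gel library or without sham replicate 1 or 2, and 0 at 32 kPa without gel replicate 2 or 3, without sham replicate 1 or 2, with a pseudocount of 0.1, with no filter or with a replicate block. Between the gels none of the listed genes was called, and without replicate 3 of the 32 kPa gel 1 modifying enzyme and 1 matrix partner were lower.

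At day 14 most of the listed fibrillar collagens, modifying enzymes and proteases were higher than in sham. Over all genes tested, 9.54% were called higher and 6.35% lower in this contrast. All 5 fibrillar collagens rose, led by Col1a1 (2.54 ± 0.24, adjusted p = 1.34e-05 by limma); Col6a1 and Col6a3 were at 0.35 ± 0.23 and 1.24 ± 0.28 in the same contrast. Of 13 modifying enzymes, 9 rose and 1 fell. The prolyl hydroxylase gene P4ha3 (3.10 ± 0.52) and the lysyl hydroxylase gene Plod2 (1.45 ± 0.23) were among those that rose, and Colgalt2 fell (-4.53 ± 0.50). Of 10 matrix partners, 5 rose and 3 fell: Fn1 by far the most (3.52 ± 0.40), then Fbn1, Mfap2, Bgn and Matn2, against a fall of Vwa1 (-2.54 ± 0.20), whose protein WARP binds collagen VI, and of Tnxb and Dcn. Of 8 receptors, Cspg4 (2.63 ± 0.40) and Itgb1 (0.89 ± 0.17) rose and Antxr2 fell (-1.35 ± 0.18). Of 5 proteases, 4 rose and Mmp11 fell (-0.73 ± 0.20). With CPM scaling or a term for sex, 7 modifying enzymes were higher in place of 9. Without day 14 replicate 3 or 4, 2 proteases were higher in place of 4, and Mmp11 was not called without day 14 replicate 2 or 3 or sham replicate 1 or 2.

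At day 56 none of these genes was called against sham by limma. Over all genes tested, 5.70% were called higher and 8.48% lower at day 56 than at day 14. Against day 14 all 5 fibrillar collagens fell (Col1a1 by 2.54 on the log2 scale, standard error 0.24), as did 8 of 13 modifying enzymes and 3 of 5 proteases, among them Bmp1 (-1.40 ± 0.32), which cuts the end of the α3 chain. Of the partners, 3 rose, such as Vwa1 (2.25 ± 0.20), and 4 fell, such as Fn1 (-3.24 ± 0.40). Of the receptors, Antxr1 (0.66 ± 0.16) and Antxr2 (0.97 ± 0.18) rose and Cspg4 (-2.89 ± 0.40) and Itgb1 (-0.81 ± 0.17) fell. With a term for sex, 5 modifying enzymes fell in place of 8 and 2 proteases in place of 3. With the values as deposited 1 partner rose in place of 3, and 1 receptor in place of 2. Leaving out day 14 replicate 1, 2 or 4 or day 56 replicate 3 or 4 also left 1 partner higher, and leaving out day 14 replicate 2 or 3 left 1 receptor higher. Without day 14 replicate 2 or 4 or day 56 replicate 3, 1 protease was lower in place of 3.

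**Figure D3:**
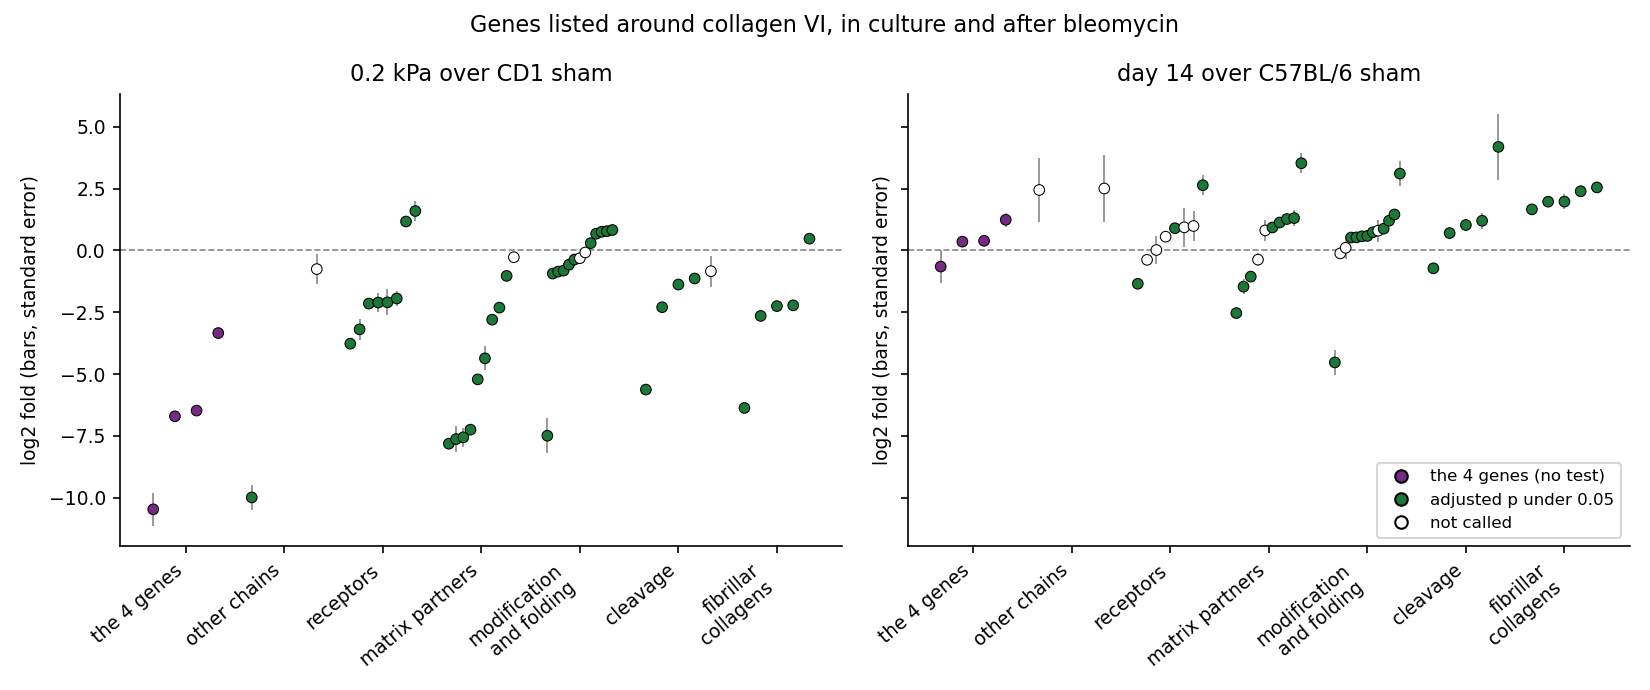
Log2 fold of the collagen VI genes and of the genes listed around them by role, for 0.2 kPa over CD1 sham (left) and day 14 over C57BL/6 sham (right); points are genes, bars standard errors, purple the 4 chosen genes (no test), green an adjusted p under 0.05 and white a gene not called. Partners reach -7.82 in culture next to the chains, while at day 14 all 5 fibrillar collagens lie above the 4 chains.

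Chromatin at the collagen VI genes was less accessible on the gels, at the start sites and within and around the genes. The region values that follow are the authors' own log2 folds and false discovery rates (FDR) in lists of differing regions, which hold no value per library. Of the 45 regions assigned to the 4 genes in the list of 32 kPa against CD1 sham, 6 were higher and 39 lower, in a list where 70.4% of regions were lower. Of the 41 in the list of 0.2 kPa against sham, 1 was higher and 40 lower (87.9% of that list were lower). The direction at these genes is therefore also that of most regions in both lists.

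The region over the Col6a1 start (chr10:76725916-76726283, build mm10), which spans the AP-1 letters printed above, was at -2.61 at 32 kPa (FDR 5.82e-44) and -3.01 at 0.2 kPa (FDR 2.52e-51). That over the Col6a2 start (chr10:76623182-76623793) was at -3.22 and -3.52, and that over the Col6a3 start (chr1:90843905-90844215) at -2.76 and -2.59. The folds at the 3 start sites thus lay between -3.52 and -2.59, with Col6a3 in that range although its RNA was reduced less. No region of these lists covered the Col6a6 start. The lowest Col6a6 region lay in intron 24 of 36 (chr9:105731927-105732428), at -4.57 at 32 kPa and -4.47 at 0.2 kPa. It was 77.5 kb from the nearest RefSeq start, which is an alternative start inside the gene, and farther from the gene's 5′ end.

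A small number of regions went the other way. At 32 kPa, 4 were assigned to Col6a6 and 2 to Col6a3. Assignment was by the nearest start, and the Col6a6 region at chr9:105887612-105887807 (1.83) lies inside the neighbouring gene Col6a5. The highest was 14.01 kb upstream of Col6a6 (chr9:105841898-105842301), at 4.80 against sham (FDR 2.39e-24). It was also the only region of the 4 genes in the list of 32 kPa against 0.2 kPa, at 1.03 (FDR 0.00135), in a list where 0.274% of 2558 regions were lower. Its log2 level (the authors' concentration per group) was 6.78 at 32 kPa, 5.75 at 0.2 kPa and 1.98 in sham. The level on the soft gel was thus also above that in sham, although the list of 0.2 kPa against sham did not hold this region. The RNA of Col6a6 itself came to 13 reads over the 32 kPa libraries and 7 over the 0.2 kPa libraries.

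At day 14 the 31 regions of the 4 genes divided into 10 higher and 21 lower, in a list where 32.1% were lower. Col6a3 had 7 higher and 7 lower, Col6a6 1 higher and 10 lower, and Col6a1 and Col6a2 each 1 higher and 2 lower. The higher region assigned to Col6a6 (chr9:105880688-105881153, 2.54) lies inside the neighbouring gene Col6a5. The 3 largest gains of Col6a3 lay upstream of it. They were 22.9 kb away (chr1:90866647-90867193, 3.62, FDR 8.63e-25), 13.95 kb away (chr1:90857792-90858054, 3.11) and 4.83 kb away (chr1:90848679-90848934, 2.90). All 3 were lower at day 56 than at day 14, at -3.41, -2.03 and -2.20. The largest gain of the family was 18.4 kb upstream of Col6a1 (chr10:76744227-76744583), at 4.05 at day 14 against sham and -2.01 at day 56 against day 14. A wider Col6a6 region at the same place, assigned to exon 24 of 37 by its centre, was at -2.25 at day 14 against sham and at 1.90 at day 56 against day 14.

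Against sham, day 56 had 2 regions of these genes, 1 of Col6a3 (-1.08) and 1 of Col6a6 (-1.11), both lower, in a list where 39.9% were lower. Against day 14 it had 13 higher and 13 lower (73.7% of that list were lower). Of the gel regions, 12 of 45 at 32 kPa (26.7%) overlapped by 1 base or more with 13 of the 31 day 14 regions (41.9%), and all 13 pairs, of which 2 share a gel region in intron 1 of Col6a6, had the same sign. Over all regions of the 2 lists, 15.7% of the 32 kPa and 35.2% of the day 14 regions overlapped, and 93.98% of pairs had the same sign. For 0.2 kPa they were 10 of 41 (24.4%) and 11 of 31 (35.5%), with the same sign in all 11 pairs, against 12.6% and 22.8% of all regions and 90.6% of all pairs. The difference from all regions was not tested. Among these pairs, intron 10 of Col6a3 was at 2.55 at 32 kPa and 1.62 at day 14, and intron 1 at 0.68 and 1.10.

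**Figure D4:**
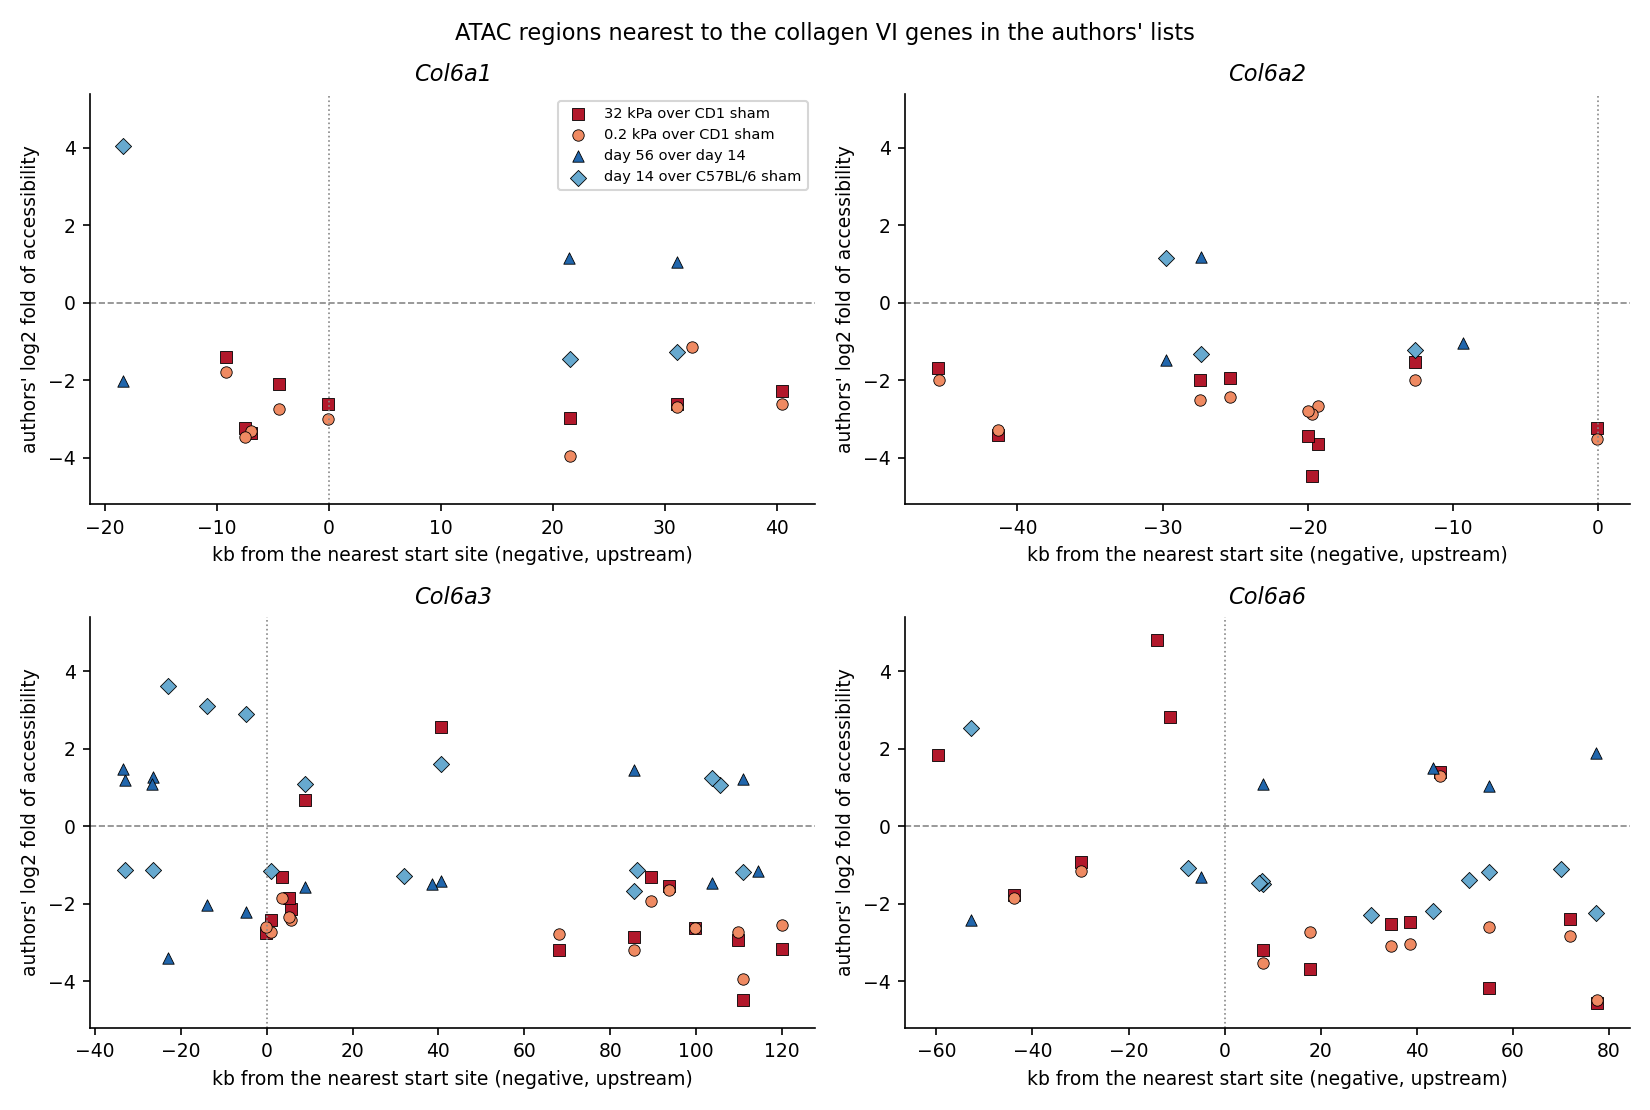
Authors' log2 fold of accessibility of each listed region against its distance in kb from the nearest start site of the gene (negative, upstream), for 32 kPa and 0.2 kPa over CD1 sham, day 56 over day 14 and day 14 over C57BL/6 sham. Gel regions lie mostly below 0 at all 4 genes, and at Col6a3 the 3 highest day 14 regions lie upstream with day 56 over day 14 below 0 at the same places.

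Of these regions, 4 are shown as 300 bases centred on the region, on the plus strand of GRCm38.p6, with the same motifs in capitals. They are the largest day 14 gain at Col6a3, the intron 10 region of Col6a3 that gained both on the stiff gel and at day 14, the Col6a6 region that separated the gels, and the Col6a6 region at exon and intron 24, which overlaps the lowest one on the gels.
Col6a3 upstream, chr1:90866771-90867070: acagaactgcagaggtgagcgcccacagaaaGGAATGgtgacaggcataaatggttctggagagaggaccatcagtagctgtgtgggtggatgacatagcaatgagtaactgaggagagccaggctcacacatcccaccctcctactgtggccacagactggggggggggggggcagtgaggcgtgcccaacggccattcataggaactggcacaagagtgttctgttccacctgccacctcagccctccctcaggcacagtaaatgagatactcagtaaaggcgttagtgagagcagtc
Col6a3 intron 10, chr1:90803172-90803471: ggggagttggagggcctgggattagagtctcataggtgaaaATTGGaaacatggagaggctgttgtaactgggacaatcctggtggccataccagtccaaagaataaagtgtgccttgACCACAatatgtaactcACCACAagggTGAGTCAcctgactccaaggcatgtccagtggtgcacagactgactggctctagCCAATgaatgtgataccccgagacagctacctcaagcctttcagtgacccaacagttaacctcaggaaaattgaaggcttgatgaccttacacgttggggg
Col6a6 upstream, chr9:105841950-105842249: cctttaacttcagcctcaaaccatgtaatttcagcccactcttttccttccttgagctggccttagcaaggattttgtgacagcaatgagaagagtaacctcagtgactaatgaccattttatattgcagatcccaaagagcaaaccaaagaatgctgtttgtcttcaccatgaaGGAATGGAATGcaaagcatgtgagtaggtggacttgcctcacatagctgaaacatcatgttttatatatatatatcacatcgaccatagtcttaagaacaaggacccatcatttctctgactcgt
Col6a6 exon 24, chr9:105732108-105732407: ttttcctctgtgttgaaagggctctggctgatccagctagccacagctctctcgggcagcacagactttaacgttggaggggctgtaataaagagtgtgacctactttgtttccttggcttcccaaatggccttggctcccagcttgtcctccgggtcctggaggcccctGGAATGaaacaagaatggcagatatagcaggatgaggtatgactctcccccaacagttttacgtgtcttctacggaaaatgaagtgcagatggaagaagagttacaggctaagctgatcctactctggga
The upstream Col6a3 window holds 1 TEAD match, and the intron 10 window 1 AP-1, 2 RUNX and 2 NF-Y matches. The upstream Col6a6 window holds 2 TEAD matches that overlap by 1 base, and the exon 24 window 1.

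In 4 of the 6 lists the AP-1 letters were found at different shares in higher and lower regions, at these genes and over all regions. They were in 5 of 6 higher and 7 of 39 lower collagen VI regions at 32 kPa against sham, and in 64.3% and 14.5% of all such regions outside chromosome 18. At 0.2 kPa against sham they were in 1 of 1 higher and 8 of 40 lower regions, against 67.8% and 14.8% of all. At day 14 against sham they were in 7 of 10 higher and 1 of 21 lower regions, against 52.3% and 10.2% of all. At day 56 against day 14 they were in 0 of 13 higher and 9 of 13 lower regions, against 7.39% and 57.1%. For 32 kPa against 0.2 kPa they were in 0 of 1 higher collagen VI region, against 54.9% of all higher regions. For day 56 against sham they were in 0 of 2 lower collagen VI regions, and over all regions the shares were close, 21.4% of higher and 23.6% of lower ones. The TEAD letters were in 16 of 39 lower collagen VI regions at 32 kPa (41.0%), against 16.7% of all lower regions. The SP letters went the other way there, in 6 of 39 (15.4%) against 35.25%. RUNX (7 of 39, against 16.0% of all) and NF-Y (13 of 39, against 33.7%) were close to all regions. In lower regions at day 14 against sham, TEAD was in 6 of 21 (28.6%), against 21.4% of all. Higher regions at 32 kPa held the TEAD letters in 2 of 6 cases at these genes, against 33.0% of all. The SP share of all lower regions at 32 kPa was near the 35.9% of all promoters, whereas most collagen VI regions lay away from a start site. No set matched for distance to a start was compared, and none of these differences was tested.

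**Figure D5:**
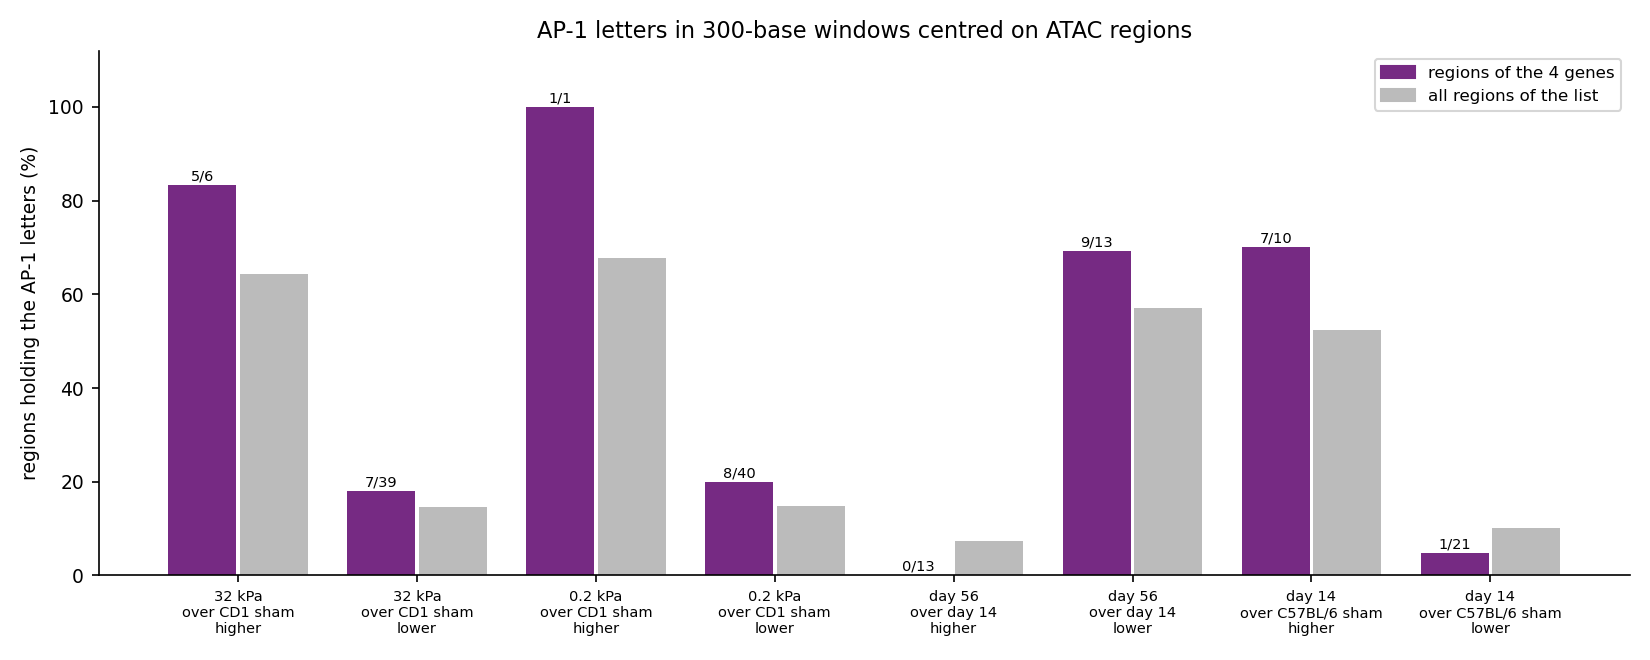
Share of 300-base windows centred on ATAC regions that hold the AP-1 letters on either strand, for the regions of the 4 genes (purple, with counts above the bars) and for all regions of the same list outside chromosome 18 (grey), by comparison and direction. At day 14 the letters are in 7 of 10 higher and 1 of 21 lower collagen VI regions.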

How the data were processed

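The members and gene lists were chosen with earlier results of these data known. RNA reads had been aligned with HISAT2 and counted with featureCounts, and ATAC reads aligned with Bowtie2 to mm10, with peaks from MACS2 and comparisons from DiffBind, per the submitters' processing notes; versions and the strand setting are not named there. The deposited RNA values are a normalised signal, the authors' gene counts divided by a factor per library, not raw counts; all values were whole multiples of what 1 read is worth (100% within 0.05), so reads were recovered. Rows with no gene name held 2.13 to 4.77% of CD1 reads and were left out. Counts had been assumed in the design, so limma 3.58.1 was used on log2(value + 1), after 1 median-of-ratios factor per library, for genes with a mean of at least 1 in the table, in 1 fit per table with Benjamini-Hochberg adjustment (threshold 0.05). edgeR 4.0.16 and DESeq2 1.42.0 on recovered reads, other scalings, pseudocounts and filters, a replicate block, a term for sex and leaving out each library were the alternatives. Folds are on the log2(value + pseudocount) scale, and for low genes they are therefore too small. Day 56 against day 14 had been planned as a test of the 4 genes and is given as a description. The fits were tested on simulated data.

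For ATAC, the log2 fold and the p-value or FDR per region are the authors' deposited values. Per the file headers the 2 lists of a gel against sham give sham over gel; the sign is turned here. Each list held regions with an absolute log2 fold of at least 1, except 32 kPa against sham (0.31). Lists without gene names were assigned to the nearest RefSeq start, a rule that gave the authors' gene for 92.2 to 94.0% of named regions and for all collagen VI regions among them. Named genes were the 4 members, 6 role lists, cell type markers and the 3 genes nearest to each member. CPM per kilobase used the longest curated RefSeq mRNA. Promoters of all 4 genes were matched by symbol in the RefSeq table.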

Additional observations from a re-analysis of the deposited data

Results flagged for a closer look

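In 3 of the 18 sets of a collagen VI gene and a C57BL/6 group, the lowest library stood far from the other 3, by the ratio of its gap to the whole range, which was above Dixon's critical value for 4 samples. Chance flags about 1 in 20 such sets. At day 56, replicate 2 was lowest for Col6a1 (45671 normalised reads, others 92865 to 103000; ratio 0.873) and for Col6a2 (35971, others 59324 to 61809; ratio 0.924). That library was also the shallowest, with 14288605 reads. At day 14, replicate 1 was lowest for Col6a3 (32783 normalised reads, others 49468 to 52368; ratio 0.878).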

How the results depend on the processing

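Of the log2 folds of the 4 genes, 216 of 228 under other settings and 166 of 168 with a library left out were counted as unchanged. Against sham this meant a move of less than the spread between libraries. Between the gels and between day 56 and day 14 it meant the same call, and a fold that was not called could change sign. With a library left out, Col6a6 ran from -0.39 to 1.05 between the gels and from -0.61 to 0.71 between the days. Scaled to CPM, the folds against CD1 sham were -6.24, -6.45, -3.14 and -6.46 at 0.2 kPa for Col6a1, Col6a2, Col6a3 and Col6a6, and -6.73, -6.78 and -6.43 at 32 kPa for Col6a1, Col6a2 and Col6a6; the median of all genes was then -0.01 and -0.04, and -0.30 and -0.34 as deposited, in place of -0.22 and -0.26. With CPM scaling the pseudocount of 1 was added to CPM, whereas Col6a6 was at 0 to 0.135 CPM in the gel libraries. Its CPM-scaled folds of -6.46 and -6.43 are therefore set by the pseudocount. On the main scale Col6a6 was at -9.34 (0.2 kPa) and -9.16 (32 kPa) with a pseudocount of 5, and at -11.60 (32 kPa) with 0.1. With a library left out it was at -10.86 to -9.40 (32 kPa). For 32 kPa against 0.2 kPa, DESeq2 called 4 genes higher and 42 lower; 2 were lower as deposited, 1 by edgeR, 1 with a pseudocount of 5 and 2 with a filter at a mean of 10; leaving out a library gave 0 to 317 higher and 0 to 510 lower, and -0.64 to -0.43 for Col6a3. For day 14 against sham it gave 1326 to 1912 genes higher. For day 56 against sham, 11 genes were higher by CPM, 54 by DESeq2 and 10 with a pseudocount of 5, and 4 were lower as deposited, 28 by DESeq2 and 0 with a term for sex; leaving out a library gave 0 to 5 higher and 0 to 4 lower. For day 56 against day 14, 777 genes were higher and 3034 lower as deposited, and 730 and 1193 with a term for sex; leaving out a library gave 760 to 1389 higher and 1102 to 1951 lower. As deposited, Col6a1 was at -0.70 and Col6a2 at -0.64 there. Replicate numbers did not pair the libraries: correlations of same-numbered libraries ran from -0.76 to 0.56 in CD1 and from -0.46 to 0.34 in C57BL/6, and in 4 of 18 and 6 of 24 matches a library was nearest to its own number. With a replicate block, 949 genes were higher and 1481 lower at day 56 than at day 14, 0 were lower at day 56 than in sham, and Col6a3 was at -1.37 there. Among the authors' regions of the 4 genes, an absolute log2 fold of at least 2 left 0 higher at 0.2 kPa, 3 at 32 kPa, 0 between the gels, 5 at day 14 and 0 at day 56 against day 14, and 3 lower at day 14, 0 at day 56 against sham and 5 at day 56 against day 14; an FDR of at most 0.01 left 1 lower at day 56 against sham. Apart from the effect of the pseudocount on Col6a6, the cause of these shifts was not tested. Depth limits Col6a6, Col6a5 and Col6a4 in cultured cells, where a few reads set the value.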

Other observations

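The alternative chain gene Col6a5 had almost no RNA on the gels, yet some regions assigned to it were more accessible there in the authors' lists. Of its 6 regions at 32 kPa against CD1 sham, 4 were higher and 2 lower, and of its 4 at 0.2 kPa, 2 were higher and 2 lower. A region in intron 13 of 40 (chr9:105917323-105917517, mm10) was at 4.37 at 32 kPa (FDR 1.37e-13), while the region just upstream of the start (chr9:105960652-105961026) was at -2.0 at 32 kPa and -1.90 at 0.2 kPa. Over the 3 libraries of each gel, Col6a5 had 1 read at 32 kPa and 6 reads at 0.2 kPa, against 12138 in CD1 sham; the 1 read is 0.0101% of the sham CPM (exact 95% interval 0.000254 to 0.0560%, counting error only). An intron region of Col6a4 was higher on both gels (3.85 at 32 kPa and 3.29 at 0.2 kPa) and at day 14 against sham (1.80), while Col6a4 had at most 4 reads in a cultured library. Col6a6, Col6a5 and Col6a4 neighbour each other, and 2 regions assigned to Col6a5 by the nearest start lie inside Col6a4 (chr9:106002832-106003225, at 3.96, and chr9:106004806-106005267, at -2.97, at 32 kPa). Likewise, some regions assigned to Col6a6 lie inside Col6a5. At 32 kPa these were chr9:105857731-105858095 (-0.91), chr9:105871787-105871957 (-1.77) and chr9:105887612-105887807 (1.83). At day 14 against sham it was chr9:105880688-105881153 (2.54).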
